A study of Mus musculus with 16 samples.

Results

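Slc6a2 encodes the norepinephrine transporter, a sodium-coupled carrier in the plasma membrane that takes released noradrenaline back into cells. The gene was taken as the single row of that name among the 38003 genes of the count matrix. It gave 3244 transcripts in 1322 of 80449 mouse lung cells, and 80.4% of those transcripts lay in cells annotated as large-vessel endothelium. The level there was far lower in lungs of 6-OHDA-treated mice without seeded cancer cells than in the vehicle and BIBO3304 lungs. In 6-OHDA lungs seeded with cancer cells the level was higher than that, though the lowest of the seeded lungs. A change of the 6-OHDA effect with seeding was not called (edgeR interaction adjusted p = 0.105).

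The transporter is best known from sympathetic nerve terminals, where it ends the action of noradrenaline and is the target of several antidepressant drugs. Lung endothelium is a second site: it clears noradrenaline from the blood that passes through the lung, while leaving adrenaline largely untouched. 6-OHDA (6-hydroxydopamine) is itself a substrate of the transporter and destroys the noradrenergic terminals that take it up. BIBO3304 blocks a receptor for neuropeptide Y, a peptide that sympathetic nerves release together with noradrenaline.

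Whole-lung cell suspensions, sorted for live cells, were profiled by split-pool barcoding, a method that tags the RNA of fixed cells over several rounds of pooling and splitting. Mice had received vehicle, 6-OHDA or BIBO3304. Each treatment gave 3 samples from lungs without seeded cancer cells and 2 from lungs with seeded pancreatic ductal adenocarcinoma (PDAC) cells. The latter carry the ending -PDAC after the treatment's name. The deposited cell table writes the seeded state as IV, which was read as PDAC cells present. The sources used here do not give mouse strain, age, dose, time of treatment or the PDAC line. They also do not say whether numbered samples were separate mice, so a p-value reflects only how far these samples spread, part of which may be technical.

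Samples held between 10003796 and 32580698 transcripts, and the median cell held 2307. The cells had been divided into 16 sublibraries before sequencing. Of all cells 18900 shared a barcode combination with a cell of another sublibrary, and 0 combinations occurred in more than 1 sample. Vehicle-PDAC sample 2 contained 0 annotated cancer cells among 9157 cells, against 56 in vehicle-PDAC sample 1. Several comparisons with that group, though not all, are therefore also given without it. Without seeding, vehicle samples 1, 2 and 3 held 2, 1 and 1 cells annotated as cancer cells. Levels are counts of a gene scaled to the total of the same cells (CPM). They are not divided by gene length, so each gene is compared between cells and not with other genes. Intervals for counts and shares (95%, exact Poisson and Clopper-Pearson) and the limits for a count of 0 (3 transcripts) cover counting error only.

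Over all samples, large-vessel endothelial cells held 2608 of the 3244 transcripts, in 825 of 1952 cells (42.3%, interval 40.1 to 44.5), at a pooled level of 535 CPM (514 to 556). Within these cells, 202 of the 20575 genes with a transcript gave more transcripts than Slc6a2, while over the whole lung 7414 genes did. Adventitial fibroblasts, the connective tissue cells around vessels and airways, came next with 206 transcripts in 143 of 4157 cells (3.44%) and 12.99 CPM (11.3 to 14.9). The large-vessel level was 41.2 times that of the adventitial fibroblasts. These 2 types were followed by general capillary endothelial cells at 5.13 CPM (4.08 to 6.37), where 54 of 8330 cells (0.648%) held a transcript.

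Below these types the order could not be resolved. The interval of the general capillary cells overlapped that of the cancer cells, at 3.41 CPM (2.24 to 4.96), and each later type overlapped the next. The cancer cells were by far the deepest, with a median of 19016 transcripts, and their 27 transcripts sat in 10 cells, 12 of them in a single cell. All other types lay at or below 3.16 CPM, and alveolar type 1 and club cells held 0 transcripts. In the 3 vehicle samples the large-vessel level was between 530.0 and 643 CPM, clear of the adventitial fibroblasts (5.59 to 12.7 CPM). The adventitial fibroblasts in turn overlapped the general capillary cells, which lay between 2.66 and 14.3 CPM.

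**Figure D1:**
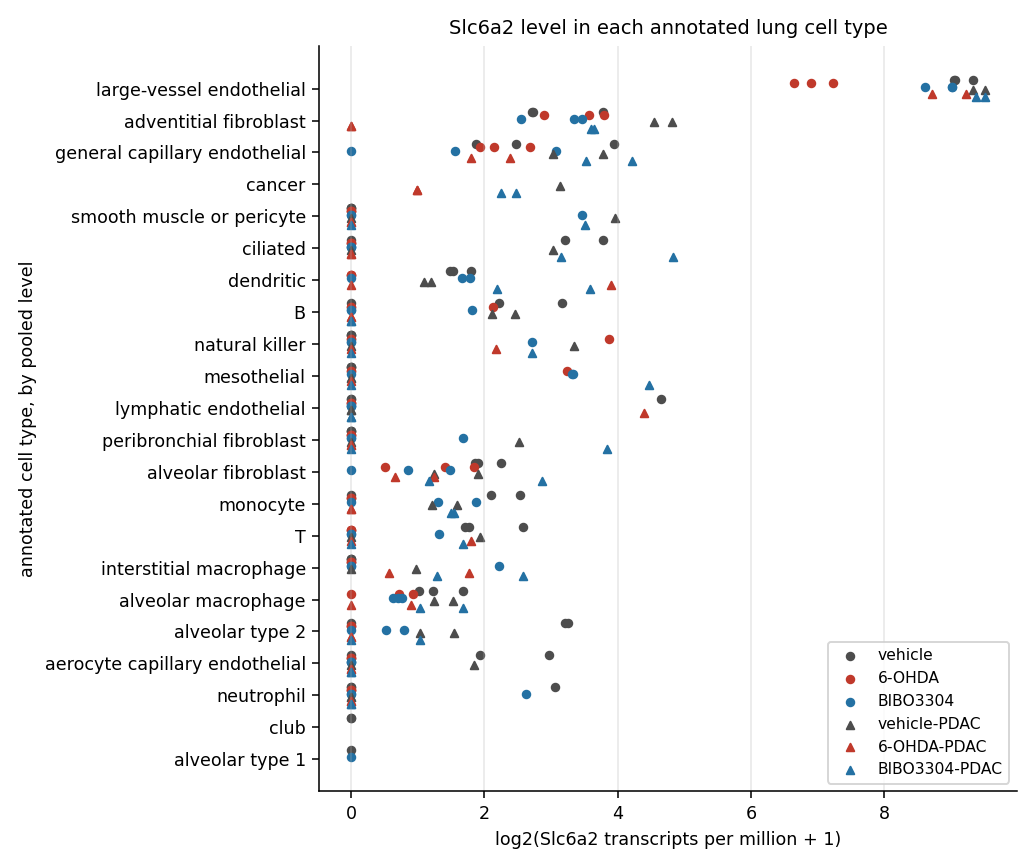
Slc6a2 level in each annotated cell type, as log2(CPM + 1). Each mark is 1 sample with at least 20 cells of the type; circles are samples without PDAC cells, triangles samples with them, and colours give the treatment. Types are ordered by pooled CPM, and large-vessel endothelial cells stand apart from all others in every sample.

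Leukocytes were taken as the measure of stray transcripts, although macrophages lying on sympathetic nerves are known to use the transporter. In them 173 of 41127 cells (0.421%, 0.360 to 0.488) held one, at 1.35 CPM and a median depth of 2415 transcripts. The shares in alveolar fibroblasts (0.528%) and general capillary cells (0.648%) were of that order, at median depths of 2653.5 and 1382.5 transcripts per cell. The alveolar fibroblast level of 1.59 CPM (1.27 to 1.97) overlapped that of leukocytes (1.16 to 1.55) and is not read as expression. The general capillary level of 5.13 CPM (4.08 to 6.37) lay above the leukocyte interval. Whether it reflects expression in those cells was not tested. The pooled leukocyte level was 1.68 CPM in vehicle, 0.453 in 6-OHDA, 0.917 in BIBO3304, 1.65 in vehicle-PDAC, 0.987 in 6-OHDA-PDAC and 1.95 CPM in BIBO3304-PDAC samples. It was lowest in the 6-OHDA samples without PDAC cells. The share of large-vessel cells (42.3%) and that of adventitial fibroblasts (3.44%) lay well above it.

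The label of the large-vessel cells held up against endothelial markers. Among those with an Slc6a2 transcript, 95.3% carried a transcript of at least 1 of 8 general endothelial genes such as Pecam1 and Cdh5, and the summed level of fibroblast genes in them was 40.7 CPM. Several markers of sympathetic neurons were almost absent. Th, the rate-limiting enzyme of noradrenaline synthesis, gave 3 transcripts in all cells, Dbh, which makes noradrenaline from dopamine, 23, Npy 7, and the neuronal factor Phox2a 4. In large-vessel cells all of these were at 0. Other markers of the same list were found: Stmn2 gave 2269 transcripts in all cells and 319 in large-vessel cells, Elavl4 389 and 4, and Uchl1 385 and 10. Stmn2 was highest in aerocyte capillary endothelial cells (162 CPM).

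Large vessels include veins and arteries, and the transcripts of Slc6a2 lay almost entirely in cells that leaned venous by marker counts. Each large-vessel cell was called venous-leaning or arterial-leaning by whether it held more transcripts of 12 venous or of 14 arterial marker genes. The lists were not scaled to each other. In vehicle samples the venous list summed to between 5295 and 9624 CPM and the arterial list to between 819 and 934 CPM. Selp (mean 3705 CPM) and Vwf (mean 2332 CPM) made up most of the venous sum, so the share of venous-leaning cells depends largely on them. The 1611 venous-leaning cells (82.5% of the type) held 2587 Slc6a2 transcripts, or 99.2%, at 609 CPM. The 262 arterial-leaning cells held 8 transcripts in 4 cells, at 15.3 CPM (6.59 to 30.1), a level 39.9 times lower. The other 79 cells, with equal counts of both lists and a median depth of 992 transcripts, held 13. The cut is a range and not a cell type: 207 of the 1952 cells lay within 1 transcript of it.

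Arterial-leaning cells held few transcripts in every group. There were 5 in vehicle, 2 in BIBO3304, 1 in 6-OHDA-PDAC and 0 in the 6-OHDA, vehicle-PDAC and BIBO3304-PDAC groups, from 23 to 64 cells a group. Among venous-leaning cells 50.4% held at least 1 transcript (47.9 to 52.9), at a median depth of 1885 transcripts.

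Vehicle large-vessel cells were also divided by Slc6a2 itself. This reads the same Slc6a2 and marker counts in the other direction and is not a separate check. The 258 cells with a transcript (median depth 1620.5) and the 352 without (1268.5) were compared by summed levels, as a description of these cells. The summed venous list was 10028 CPM in cells with Slc6a2 and 7164 CPM in those without, with 8 of 12 members higher in all 3 vehicle samples. That ratio of 1.40 was close to the 1.36 of 6 lymphatic marker genes (838 against 618 CPM). Of these 6, 1 was higher in all 3 samples: Lyve1, at 756 against 553 CPM. The ratio was 1.12 for 6 general capillary genes and 0.83 for the 8 general endothelial genes. Vwf, a clotting factor stored by endothelial cells, was at 3016 against 1887 CPM and Selp (P-selectin, which captures leukocytes) at 4676 against 3892. Nr2f2, a transcription factor of venous identity, was at 117 against 86.9 CPM. Among venous genes only Adamts4, a matrix protease, was lower in all 3 samples, at 23.7 against 98.1 CPM. Ptgis was slightly lower in the summed level (98.3 against 101 CPM), and Ackr1 and Cpe were lower in 2 of 3 samples.

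Arterial genes were scarce in cells with Slc6a2, with 9 of 14 members lower in all 3 vehicle samples. Their summed level was 414 CPM with and 1319 CPM without, a ratio of 0.314. Gja5, an arterial gap junction gene, gave 0 transcripts in the cells with Slc6a2 and 23 in those without. Bmx, an arterial kinase, gave 9 against 58, Sema3g 5 against 98, and Dll4, a Notch ligand of arteries, 1 against 26. Tspan8 ran the other way, at 27.1 against 11.3 CPM and higher in all 3 samples. Gja4 was also higher in the summed level, at 8.48 against 3.22 CPM from 5 and 2 transcripts, and in 2 of 3 samples.

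Among all genes with at least 50 CPM in the cells with Slc6a2 and a higher level there in each vehicle sample, the 10 largest ratios belonged to Gm32647, Sema3c, Mob1a, Nipal2, Hspa12a, Stau2, Cmah, Rrn3, Mmp16 and Mast2. Sema3c, a secreted guidance molecule, was at 509 against 114 CPM, a ratio of 4.45 from 300 and 71 transcripts. The ratios of the 10 genes lay between 2.90 and 4.69, and 6 of them rested on 14 or fewer transcripts in the cells without Slc6a2.

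**Figure D2:**
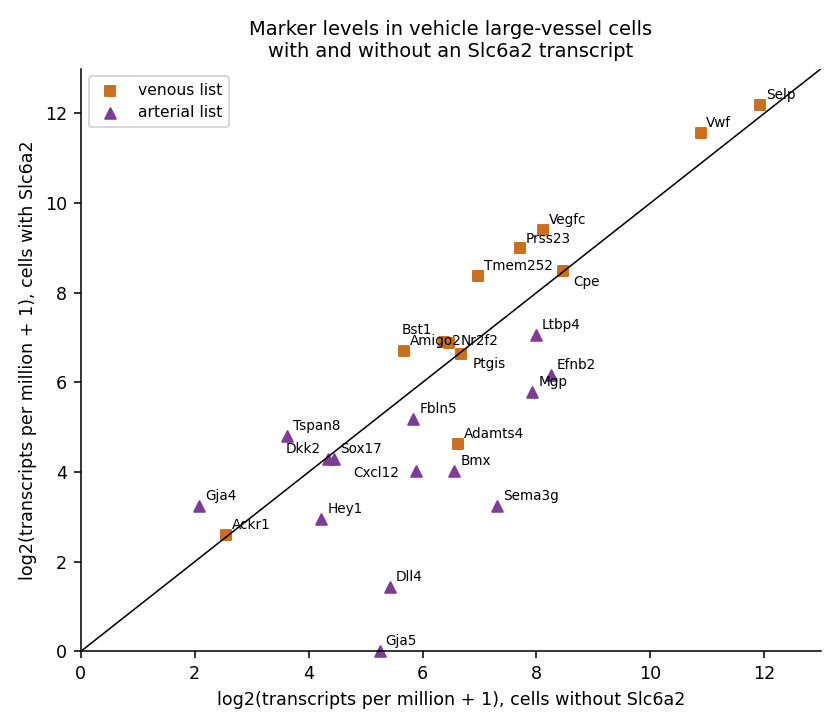
Levels of venous and arterial marker genes, as log2(CPM + 1), in vehicle large-vessel cells without (x axis) and with (y axis) an Slc6a2 transcript; each mark is 1 gene summed over 3 samples and the line marks equal levels. Vwf, Vegfc and Prss23 lie above the line, and Gja5, Sema3g, Dll4 and Bmx below it.

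Across cell types, few genes shared the distribution of Slc6a2. The comparison covered 21 types in vehicle samples and 11017 genes reaching 20 CPM in a type. The highest Pearson correlations of log2(CPM + 1) were with Cytl1 (0.94), Lama1 (0.93), Kcnc2 (0.88), Sele (0.88) and Lhx6 (0.87). Cyp1a1 (0.82), Nos3 (0.82), Tenm2 (0.81), 1700020G17Rik (0.81) and Clca3a1 (0.80) followed. Sele encodes E-selectin, a leukocyte adhesion molecule of activated venules, Nos3 the endothelial nitric oxide synthase, and Lama1 a laminin chain. All 10 were highest in large-vessel cells, by between 1.50 and 6.54 on the log2 scale over the next type, against 6.07 for Slc6a2. The venous genes Selp (0.78) and Vwf (0.70) ranked 13 and 28, but Nr2f2 (0.26) and Ptgis (0.17) of the same list ranked 2061 and 3564. The arterial genes Gja5 (0.65) and Cxcl12 (0.62) ranked 44 and 64, and Mgp (0.17) of that list 3722. The ranks of the venous and arterial lists were thus mixed. These values describe types whose cells came from the same 3 samples and carry no test.

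Without PDAC cells, Slc6a2 was lower in large-vessel cells of every 6-OHDA sample than in any other sample of the study. The 3 vehicle samples gave 530.0, 533 and 643 CPM, from 292, 85 and 322 transcripts. The 3 6-OHDA samples gave 149, 118 and 98.9 CPM, from 22, 19 and 13 transcripts, and their intervals reached at most 225 CPM. The 3 BIBO3304 samples gave 517, 519 and 389 CPM. The means were 569 ± 64.1 CPM in vehicle, 122 ± 25.2 in 6-OHDA and 475 ± 74.3 in BIBO3304 samples (SD, n = 3 each), so that the vehicle mean was 4.66 times and the BIBO3304 mean 3.89 times the 6-OHDA mean.

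In the fit over all large-vessel genes Slc6a2 fell by 2.26 on the log2 scale under 6-OHDA against vehicle (SE 0.23, edgeR quasi-likelihood test, adjusted p = 7.32e-07). It had the smallest p of the 5856 genes tested, of which 11 (0.188%) were called at an adjusted p under 0.05. Against BIBO3304 it fell by 1.99 (SE 0.23, adjusted p = 1.17e-05), again first of 5856 genes, with 23 called (0.393%). BIBO3304 against vehicle gave -0.28 (SE 0.19, 95% interval -0.66 to 0.10, adjusted p = 0.819), where no gene was called (0%), with 420 genes at an unadjusted p under 0.05 in edgeR and 1 gene called by DESeq2. The median change of all genes was within 0.01 of 0 in these 3 fits.

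**Figure D3:**
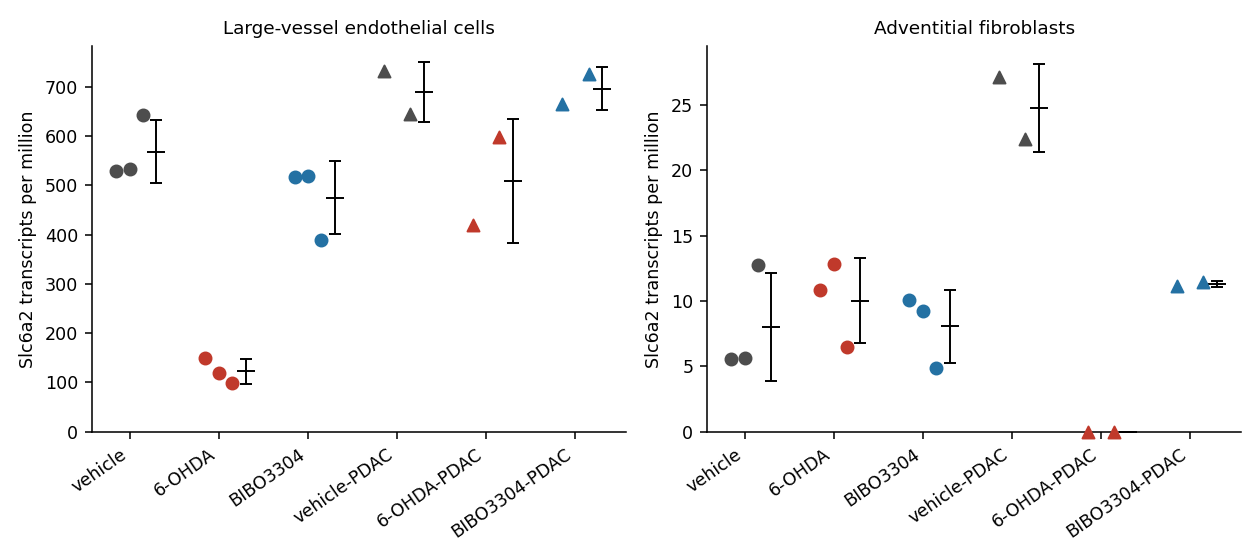
Slc6a2 CPM in large-vessel endothelial cells (left) and adventitial fibroblasts (right), 1 mark per sample, with the group mean and SD beside it (n = 3 without PDAC cells, circles; n = 2 with them, triangles). The 3 6-OHDA samples are lowest on the left, between 98.9 and 149 CPM; on the right both 6-OHDA-PDAC samples are at 0. The y axes differ.

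Fewer of the 6-OHDA cells held the transcript. Among 610 vehicle large-vessel cells 258 held at least 1 transcript (42.3%), among 193 6-OHDA cells 27 did (13.99%, 9.43 to 19.7), and among 391 BIBO3304 cells 188 did (48.1%). Cells with 5 or more transcripts made up 6.89% of vehicle cells and held 40.9% of the vehicle transcripts. In 6-OHDA samples 2 cells reached 5 (1.04%, 0.126 to 3.69), the highest cell held 6, and in vehicle the highest held 14. Cells with the transcript held on average 2.57 ± 0.473 transcripts in vehicle and 2.11 ± 0.446 in 6-OHDA samples (SD, n = 3 each), which overlapped between samples.

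Depth per cell did not run with this fall. Large-vessel cells were deeper in 6-OHDA samples (sample medians 1582 to 2060.5 transcripts) than in vehicle samples (1202 to 1489), and deepest in BIBO3304 samples (2302 to 3924.5). The shares were therefore computed for each cell thinned to 1000 transcripts, which left out 193 of 610 vehicle, 35 of 193 6-OHDA and 48 of 391 BIBO3304 cells. The thinned shares were 29.2%, 26.7% and 37.4% in the vehicle samples. They were 10.5%, 7.28% and 5.21% in the 6-OHDA samples, below every other sample. They were 31.9%, 32.7% and 24.2% in the BIBO3304 samples, which overlapped vehicle, with 1 sample below the lowest vehicle sample.

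An exact permutation test over samples, two-sided, gave p = 0.1 for 6-OHDA against vehicle and against BIBO3304, the smallest value 3 against 3 samples allow (adjusted over 8 comparisons 0.267). The mean differences were -23.4 and -21.9 percentage points, and no sample of one group overlapped the other.

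Venous-leaning cells made up 85.9%, 80.2% and 86.8% of large-vessel cells in vehicle and 80.8%, 65.1% and 75.9% in 6-OHDA samples. The ranges overlapped, and the exact two-sided permutation test gave p = 0.2 (adjusted 0.533), with 0.1 the smallest possible. Of the 12 venous genes 11 were tested: 10 had lower fitted values under 6-OHDA than vehicle, 0 were called by edgeR (4 at an unadjusted p under 0.05), and their median was -0.65 on the log2 scale beside 0.01 for all genes. Of the 14 arterial genes 13 were tested: 12 had higher values, 0 were called by edgeR (5 at an unadjusted p under 0.05), and their median was 0.76. The summed arterial level was between 819 and 934 CPM in vehicle, 1069 and 1595 CPM in 6-OHDA and 873 and 1164 CPM in BIBO3304 samples, and the summed venous level 7781 ± 2235 CPM in vehicle and 7188 ± 3187 CPM in 6-OHDA samples (SD, n = 3 each). Over all genes of that fit 467 of 5856 had an unadjusted p under 0.05 and 11 were called. Against BIBO3304, also over all large-vessel cells, the venous genes Prss23 (-1.43, SE 0.23, adjusted p = 0.00214) and Vegfc (-1.23, SE 0.26, adjusted p = 0.0254) fell. The values for Vwf, Selp and Nr2f2 under 6-OHDA against vehicle were -0.28, 0.07 and -0.33, and those for Gja5 and Bmx 1.81 and 1.19, none of them called.

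Venous-leaning cells held 98.4% of the Slc6a2 transcripts of the type in vehicle and 100% in 6-OHDA samples. A fit of these cells alone therefore reuses nearly the same Slc6a2 counts and is not a separate check. The fall was of similar size within them. There the vehicle samples gave 589, 665 and 714 CPM, the 6-OHDA samples 163, 160.1 and 119 CPM, and the BIBO3304 samples 586, 585 and 454 CPM. Slc6a2 fell by 2.17 on the log2 scale under 6-OHDA against vehicle (SE 0.24, edgeR adjusted p = 3.62e-06) and by 1.90 against BIBO3304 (SE 0.24, adjusted p = 5.45e-05). It ranked first by p in both, where 8 (0.147%) and 20 (0.369%) of 5425 genes were called. Summed leukocyte, fibroblast and epithelial lists in large-vessel cells were low and overlapped between vehicle and 6-OHDA samples (means of 402 and 325, 79.0 and 67.9, and 145 and 110 CPM).

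**Figure D4:**
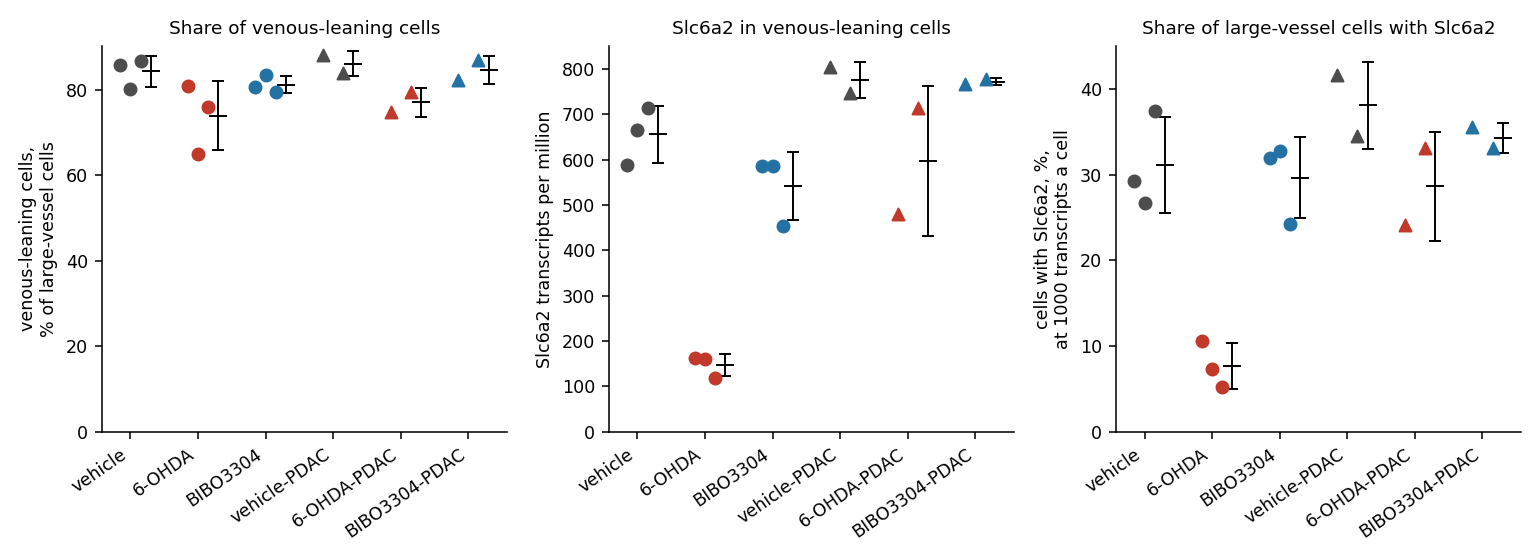
Share of venous-leaning cells among large-vessel cells (left), Slc6a2 CPM in venous-leaning cells (middle) and share of large-vessel cells with Slc6a2 after thinning each cell to 1000 transcripts (right). Marks are samples (circles without, triangles with PDAC cells) beside the group mean and SD (n = 3 or 2). The 6-OHDA samples overlap vehicle on the left and lie below all other samples in the middle and on the right.

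With PDAC cells the level under 6-OHDA was not as low as without them. The 2 6-OHDA-PDAC samples gave 419 and 598 CPM in large-vessel cells, from 85 and 57 transcripts in 83 and 39 cells. The vehicle-PDAC samples gave 732 and 646 CPM and the BIBO3304-PDAC samples 665 and 727 CPM. The 6-OHDA-PDAC samples were the lowest of the 6, yet both stood above all 3 6-OHDA samples without PDAC cells. Their mean of 509 ± 126 CPM (SD, n = 2) was 4.17 times that of the 6-OHDA samples.

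Slc6a2 rose by 2.04 on the log2 scale in 6-OHDA-PDAC against 6-OHDA samples (SE 0.26, edgeR adjusted p = 9.20e-05), first of 5856 genes by p. Only 2 genes (0.0342%) were called there. The other was Slco2a1, the prostaglandin carrier, which rose by 1.31 (SE 0.24, adjusted p = 0.0238). In venous-leaning cells Slc6a2 rose by 1.99 (SE 0.27, adjusted p = 2.31e-04), with 2 of 5425 genes called (0.0369%), and the 2 6-OHDA-PDAC samples gave 479 and 713 CPM. All 11 venous genes tested had higher values in that comparison, 0 of them called by edgeR (5 at an unadjusted p under 0.05, beside 368 of all 5856 genes), with a median of 0.58. The thinned share of cells was 24.1% and 33.1%, a mean 20.9 percentage points above the 6-OHDA samples, with no overlap (exact two-sided permutation test, p = 0.1, the smallest possible for 2 against 3, adjusted 0.267).

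The other treatments showed no call for PDAC cells against none. Vehicle-PDAC against vehicle gave 0.31 (SE 0.20, edgeR adjusted p = 0.998) where 0% of genes were called, with 241 genes at an unadjusted p under 0.05 in edgeR and 0 called by DESeq2. BIBO3304-PDAC against BIBO3304 gave 0.63 (SE 0.21, interval 0.20 to 1.06, unadjusted p = 0.00534, adjusted p = 0.272), where 7 genes (0.12%) were called. Both BIBO3304-PDAC samples lay above all 3 BIBO3304 samples in CPM. Without vehicle-PDAC sample 2 the vehicle value was 0.33 (SE 0.27).

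Among samples with PDAC cells, 6-OHDA against vehicle gave -0.53 (SE 0.24, interval -1.02 to -0.04, unadjusted p = 0.0343, edgeR adjusted p = 0.846). No gene was called there (0%), with 340 at an unadjusted p under 0.05 in edgeR and 1 called by DESeq2. Without vehicle-PDAC sample 2 the value was -0.55 (SE 0.30), and in venous-leaning cells -0.47 (SE 0.24), with 0% of genes called by edgeR, 327 at an unadjusted p under 0.05 and 2 called by DESeq2. BIBO3304 against vehicle gave 0.05 (SE 0.23, adjusted p = 0.986), where 1 gene was called (0.0171%), and its sign turned with no gene filter and without 1 of the samples.

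Whether the 6-OHDA effect differed with PDAC cells was tested as an interaction. The effect in large-vessel cells was 1.73 higher on the log2 scale with PDAC cells (SE 0.34, interval 1.04 to 2.42, unadjusted p = 1.80e-05), the smallest p of the 5856 genes, but the edgeR adjusted p was 0.105 and 0% of genes passed, with 313 at an unadjusted p under 0.05. DESeq2 gave 1.72 with an adjusted p of 0.00506, the only gene it called. Without 6-OHDA sample 1 the edgeR adjusted p was 0.0286, without the deepest 5% of cells 0.0165 and without vehicle-PDAC sample 2 it was 0.339. In venous-leaning cells the interaction was 1.71 (SE 0.34, adjusted p = 0.170), with 0% called by edgeR, 323 at an unadjusted p under 0.05 and 1 called by DESeq2. The matching term for BIBO3304 in large-vessel cells was 0.32 (SE 0.29, adjusted p = 0.862), with 0% called by edgeR, 437 at an unadjusted p under 0.05 and 2 called by DESeq2.

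These comparisons share samples: the 3 6-OHDA samples stand in the drug comparisons and in the PDAC comparison, so their values are not independent of each other.

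**Figure D5:**
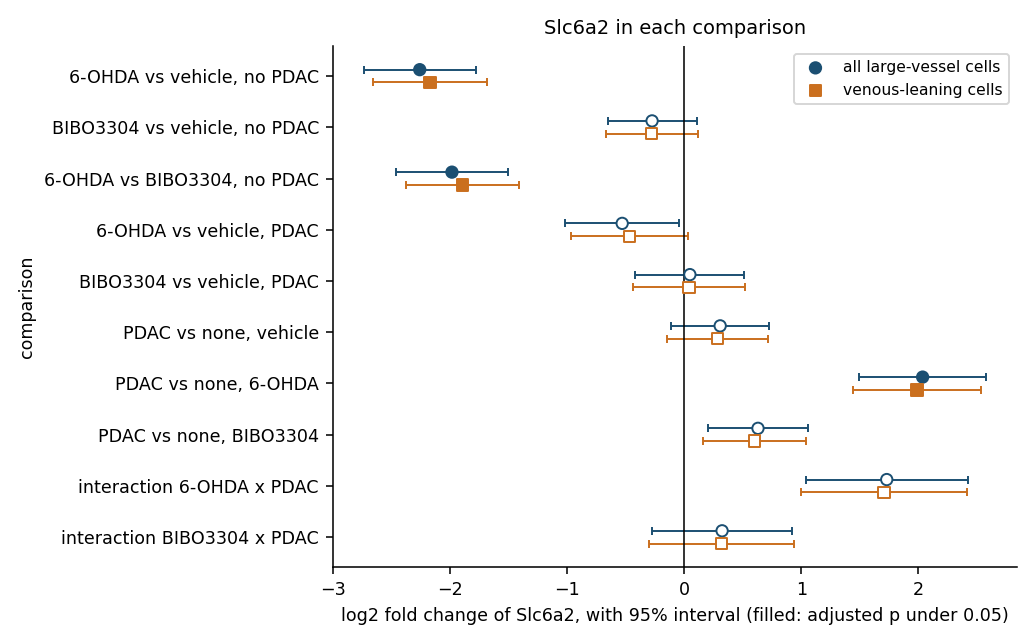
Log2 fold change of Slc6a2 in each comparison, with its 95% interval, for all large-vessel cells (circles) and venous-leaning cells (squares). Filled marks have an adjusted p under 0.05: both 6-OHDA comparisons without PDAC cells, near -2, and PDAC cells against none under 6-OHDA, near 2.

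All annotated cells of a sample were also summed over the whole lung. Vehicle samples gave 15.6, 9.02 and 20.5 CPM, 6-OHDA samples 3.44, 3.18 and 2.30 CPM, and BIBO3304 samples 16.01, 10.3 and 9.45 CPM. With PDAC cells vehicle gave 18.8 and 12.9, 6-OHDA 6.58 and 5.33, and BIBO3304 15.5 and 12.2 CPM. All 5 samples treated with 6-OHDA were lower than all 10 others, whereas in large-vessel cells the 6-OHDA-PDAC samples overlapped the vehicle and BIBO3304 samples. The lung-wide level also depends on the share of large-vessel cells, which was between 1.11% and 3.35% of a sample's cells. Without PDAC cells this share was 1.68% to 3.27% in vehicle, 1.31% to 2.003% in 6-OHDA and 2.47% to 3.35% in BIBO3304 samples. With them it was 2.73% and 2.39% in vehicle, 2.099% and 1.11% in 6-OHDA, and 2.69% and 1.77% in BIBO3304 samples. How much of the lower lung-wide level came from this share was not tested. Large-vessel cells held between 52.4% of a sample's Slc6a2 transcripts, in a 6-OHDA sample, and 89.4%, in a BIBO3304 sample.

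Adventitial fibroblasts showed another pattern, at far lower counts. Without PDAC cells the treatments overlapped: vehicle samples gave 5.59, 5.62 and 12.7 CPM, 6-OHDA samples 10.8, 12.8 and 6.44 CPM and BIBO3304 samples 10.1, 9.21 and 4.86 CPM, each from 3 to 14 transcripts. The 2 vehicle-PDAC samples gave 27.1 and 22.4 CPM, from 65 and 52 transcripts in 39 and 35 cells, above every other sample. The BIBO3304-PDAC samples gave 11.2 and 11.5 CPM. The 2 6-OHDA-PDAC samples gave 0 transcripts in 187 and 102 cells.

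The 289 adventitial fibroblasts of the 6-OHDA-PDAC group held 1079827 transcripts in all, so that 0 allows up to 2.78 CPM over the group. The vehicle-PDAC rate of 24.8 CPM would have given 26.8 transcripts at that depth, the rate of 6-OHDA samples without PDAC cells 11.3, and the rate of the other types in the 6-OHDA-PDAC group 1.12. The vehicle-PDAC level (interval 20.5 to 29.7 CPM) was 8.93 times the limit of 2.78 CPM, a ratio that leaves out the counting error of the vehicle-PDAC level. Slc6a2 fell in 6-OHDA-PDAC against vehicle-PDAC samples (edgeR adjusted p = 0.00449), first by p of 8590 genes, of which 3 (0.0349%) were called. The call rested on both 6-OHDA-PDAC samples: without sample 1 the adjusted p was 0.108, without sample 2 it was 0.105, and DESeq2 gave 0.0563. Without vehicle-PDAC sample 2 it was 0.00963.

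The 6-OHDA effect in these cells differed between the states with and without PDAC cells (edgeR interaction adjusted p = 0.0373), the 1 gene of 8590 called (0.0116%). That call was lost in 12 of 16 alternatives, with adjusted p-values of up to 0.290. It was lost without any single sample of vehicle-PDAC or 6-OHDA-PDAC, without vehicle sample 1 or 2, and without 6-OHDA sample 1 or 2. Vehicle-PDAC against vehicle gave 1.82 (SE 0.37, unadjusted p = 5.74e-05, adjusted p = 0.281), the smallest p of its fit, in which 0% of genes passed, with 326 at an unadjusted p under 0.05 in edgeR and 0 called by DESeq2. With no filter on low genes its adjusted p was 0.00835. Without vehicle-PDAC sample 2 it was 1.78 (SE 0.45).

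BIBO3304-PDAC against vehicle-PDAC gave -1.15 (SE 0.42, adjusted p = 0.762), with 0% of genes called by edgeR, 529 at an unadjusted p under 0.05 and 2 called by DESeq2. 6-OHDA-PDAC against 6-OHDA had an adjusted p of 0.230 with 0% called by edgeR, 514 at an unadjusted p under 0.05 and 2 called by DESeq2. Without PDAC cells 6-OHDA against vehicle gave 0.34 (SE 0.46, adjusted p = 0.928), with 3 genes called (0.0349%).

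The adventitial cells with Slc6a2 were fibroblasts by their other genes. All 143 carried a transcript of Col1a1, Col1a2, Pdgfra or Dcn, as did 98.3% of the 4014 adventitial cells without Slc6a2. The summed endothelial level was 34.1 CPM in the 143 cells, 43.3 CPM in the 4014 and 2780 CPM in large-vessel cells with Slc6a2. The 143 cells were deeper, at a median of 5149 against 2783.5 transcripts. Whether the Slc6a2 transcripts were the fibroblasts' own was not tested. When cells with a Pecam1, Cdh5 or Vwf transcript were left out, the vehicle-PDAC samples gave 27.2 and 21.3 CPM and the 6-OHDA-PDAC samples 0.

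In the other types Slc6a2 was too rare for most tests. It passed the filter on low genes in 5 of 20 types fitted: the large-vessel cells, the adventitial fibroblasts, and the general capillary cells, alveolar fibroblasts and alveolar macrophages. In the last 3 types none of 30 tests was called in edgeR. Their smallest adjusted p was 0.138, 4 had an unadjusted p under 0.05, and 0.633% of all gene tests in these fits were called.

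The remaining genes of noradrenaline handling were described from a list of 44 genes other than Slc6a2. Among the 6 other monoamine carriers of the plasma membrane none passed the filter in large-vessel cells. Slc6a3, the dopamine transporter, gave 0 and Slc6a4, the serotonin transporter, 4 transcripts there, although Slc6a4 gave 1651 in the whole lung, with its highest level in alveolar macrophages (14.8 CPM). Slc22a3, a low-affinity carrier, was highest in alveolar fibroblasts (21.6 CPM) and gave 2 transcripts in large-vessel cells. Slc18a2, which loads monoamines into vesicles, gave 20, with its highest level in neutrophils (41.1 CPM). Ddc, the decarboxylase of the pathway, gave 3 in large-vessel cells and was highest in peribronchial fibroblasts (40.8 CPM).

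Enzymes that break noradrenaline down were present but not concentrated in large-vessel cells. Maoa, a monoamine oxidase, was at 30.3 CPM there and highest in general capillary cells (65.9 CPM). Maob was at 9.64 CPM and highest in peribronchial fibroblasts (81.2 CPM). The dehydrogenases Aldh2 and Aldh1a1 were at 138 and 26.2 CPM, against 227 and 816 CPM in club cells. Akr1a1, Sult1a1 and Adh5 were at 98.8, 12.3 and 9.02 CPM, and each was higher in at least 5 other types.

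Genes for the clearance of other blood-borne mediators gave the calls of that list. Hpgd, which inactivates prostaglandins, was at 323, 276 and 247 CPM in vehicle large-vessel samples and at 81.2, 131 and 68.5 CPM in 6-OHDA samples, without overlap. It fell by 1.62 on the log2 scale (SE 0.30, edgeR adjusted p = 0.0091), and against BIBO3304 by 1.46 (SE 0.29, adjusted p = 0.0209). In 6-OHDA-PDAC samples it was at 187 and 378 CPM, with an adjusted p of 0.273 against 6-OHDA.

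Slco2a1 was at 365, 374 and 380.4 CPM in 6-OHDA and at 834 and 996 CPM in 6-OHDA-PDAC samples, the rise given above. Vehicle samples were at 561, 364 and 585 CPM. Ece1, the endothelin-converting enzyme, was the only gene of the group highest in large-vessel cells (1038 CPM), and its value under 6-OHDA against vehicle was -0.0048 (SE 0.20). The other members with levels to name were Ace (243 CPM, value -0.32), Entpd1 (713 CPM, -0.09), Nt5e (47.6 CPM) and Ednrb (12.7 CPM).

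Over the whole list, 15 of the 44 genes were tested in large-vessel cells. Under 6-OHDA against vehicle 1 was called (Hpgd, lower) and 13 of 15 had lower values, with a median of -0.35 beside 0.01 for all genes, of which 11 of 5856 (0.188%) were called. Under 6-OHDA against BIBO3304 1 was called (Hpgd), beside 23 of all 5856 genes (0.393%), with a list median of -0.16. Under 6-OHDA-PDAC against 6-OHDA 1 was called (Slco2a1, higher), beside 2 of all 5856 genes (0.0342%), with a list median of 0.01. In the other 7 comparisons none was called by edgeR, with 0 to 4 of the 15 at an unadjusted p under 0.05, beside 241 to 591 of all 5856 genes. The kinases and partners that regulate the transporter (Prkce, Prkca, Prkcb, Ppp2ca, Stx1a and Pick1) were at 717, 73.8, 14.97, 108, 11.1 and 6.36 CPM. Gata2 and Gata3, factors shared by noradrenergic neurons and endothelium or lymphocytes, were at 84.3 and 17.8 CPM.

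The nearest protein-coding neighbours of Slc6a2 on the RefSeq table (GRCm38.p6) did not share its level. Lpcat2 gave 178 transcripts in large-vessel cells (36.5 CPM) and Ces1a gave 2, and no gene of that table overlaps Slc6a2.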

How the data were processed

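Counts per gene and cell are raw transcript counts in the deposited matrix, and the sample, treatment, seeding state and cell type of each cell come from the deposited cell table, where the authors gave a transcript count that equals the matrix total for 99.0% of cells. The submitters' processing notes name Seurat 5.3.0 and the build mm39. The aligner, counting and cell filters, and any treatment of doublets, are not stated by those notes or by the labels. No doublets were removed here.

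Counts were summed per sample and annotated type (at least 20 cells). All 6 groups were fitted together by the quasi-likelihood test of edgeR 4.0.16 (TMM, filterByExpr with a minimum count of 10) in R 4.3.3, with Benjamini-Hochberg adjustment over all genes tested of a type and comparison. Shares were thinned analytically and tested by exact two-sided permutation of samples (scipy 1.17.1). The procedure was tested on simulated data. Alternatives were DESeq2 1.42.0, RLE factors, no filter, at least 50 cells, only the groups compared, a term for the sample number, leaving out samples, leaving out the deepest 5% of cells, thinning to 500 transcripts, and a cut of 2 transcripts for venous-leaning cells. Alternatives for adventitial fibroblasts, and the number term for venous-leaning cells, were chosen after seeing the data.

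The gene, lists and tests were chosen with earlier results of these data known. Named genes are the members of the noradrenaline list with 20 transcripts in large-vessel cells or a call, called venous or arterial genes with Vwf, Nr2f2, Selp, Gja5 and Bmx, the 10 genes most like Slc6a2 across types, and the 10 highest ratios in cells with it. Other genes named were chosen after their values were seen. The fitted fold change against the 6-OHDA-PDAC adventitial fibroblasts, at 0 transcripts, depends on the prior count and is not given. Some members of the noradrenaline and neuron lists are not reported here.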

Additional observations from a re-analysis of the deposited data

Results flagged for a closer look

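In adventitial fibroblasts the effect of 6-OHDA on Slc6a2 differed between lungs with and without PDAC cells by the test of that difference (edgeR interaction adjusted p = 0.0373). The call was lost in 12 of 16 alternatives, among them DESeq2 (adjusted p = 0.193) and the sample number as a block (0.112). Without PDAC cells the 6-OHDA and vehicle samples overlapped, and with them both 6-OHDA-PDAC samples were at 0 transcripts while the vehicle-PDAC samples were at 27.1 and 22.4 CPM. Vehicle-PDAC sample 2, without annotated cancer cells, did not differ from sample 1 by more than their counting intervals (16.7 to 29.4 and 20.9 to 34.6 CPM). No group had enough samples to look for single samples far from the others.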

How the results depend on the processing

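In large-vessel cells the fall under 6-OHDA kept its call in all 13 alternatives (log2 values -2.69 to -2.13), against BIBO3304 in all 13 (-2.34 to -1.86), and the rise with PDAC cells under 6-OHDA in all 12 (1.91 to 2.46). The interaction passed with DESeq2 (1.72), without the deepest cells (2.14) and when single samples were left out (1.60 to 1.91), there only without 6-OHDA sample 1; in venous-leaning cells it passed with DESeq2 (1.71) alone. BIBO3304 against vehicle with PDAC cells turned sign with no gene filter (-0.078) and among samples left out (-0.020 to 0.087). In adventitial fibroblasts, 6-OHDA against vehicle with PDAC cells had adjusted p-values of 0.0563 with DESeq2 and 0.00963 to 0.108 with samples left out. Vehicle-PDAC against vehicle passed only with no gene filter (0.00835). The interaction there had 0.122 with only the groups compared, 0.193 with DESeq2, 0.135 without cells with an endothelial transcript, and 0.0174 to 0.290 with samples left out. Differences in thinned shares turned sign without thinning for BIBO3304 against vehicle (7.34 percentage points; -3.72 to 1.65 with samples left out) and for PDAC cells against none under BIBO3304 (-7.81). The cause of these changes was not tested. No other value changed its direction or its side of the threshold.

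Sample numbers did not pair samples: over 33 same-numbered pairs of large-vessel sums the mean correlation was -0.01, and 6 exceeded 0.1. With the number as a block, Slc6a2 gave -2.27 for 6-OHDA against vehicle, 2.01 for PDAC cells against none under 6-OHDA and 1.74 for the interaction, with 13, 2 and 0 genes called (without the block 11, 2 and 0), and the adventitial interaction had an adjusted p of 0.112. Over all alternatives the number of genes called in large-vessel cells was 1 to 38 for 6-OHDA against vehicle (11 as given), 1 to 66 against BIBO3304 (23), 1 to 7 for PDAC cells against none under 6-OHDA (2) and 0 to 27 under BIBO3304 (7, with the block 3), and in adventitial fibroblasts 0 to 45 for 6-OHDA against vehicle with PDAC cells (3) and 0 to 18 for the interaction (1).

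The 6-OHDA values rest on 54 transcripts in 193 large-vessel cells, and on 0 in 289 adventitial fibroblasts with PDAC cells. The 50-cell minimum left out 6-OHDA-PDAC sample 2. Where a sample left out leaves 1 in a group, the fit assumes that the lone sample varies like the other groups. Groups of 2 or 3 samples cannot reach p = 0.05 in the exact tests.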
